A study of Mus musculus with 7 samples.

Results

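The 6 transcripts described here encode GTPases of the immunity-associated protein (GIMAP) family: Gimap1, Gimap3, Gimap5, Gimap6, Gimap7 and Gimap8. They were taken by symbol from a deposited table of 752 genes and are 6 of the 8 numbered Gimap genes in the GENCODE M21 annotation. Gimap4 and Gimap9 are not in that table and so have no values here. The table compares B cells from spleens of 3 Batf KO and 4 wild-type mice, which all carry the C57BL/6J background and whose B cells all spent 6 h in culture with 20 µg/mL lipopolysaccharide (LPS), a bacterial ligand of TLR4, and 20 ng/mL interleukin-4 (IL-4). BATF is an AP-1 family transcription factor. The B cells were isolated on magnetic (MACS) columns. The sources used here give neither the Batf allele nor the age of the mice, and they describe no unstimulated group. Each library was treated as 1 mouse, and the replicate numbers used here only name the libraries of a group in the order of deposit.

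GIMAP proteins carry a GTP-binding domain shared with plant AIG1 proteins, and several are anchored in intracellular membranes. They are known mainly from lymphocytes, where they act in cell survival, and their genes lie side by side on mouse chromosome 6. Gimap5 is needed for the survival of peripheral lymphocytes and acts at lysosomes, and Gimap3 is its closest relative. Gimap1 is needed for mature T and B cells, Gimap6 takes part in autophagy, and Gimap8 is the longest member, with several GTP-binding domains in a row.

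The table holds genes that had passed the authors' threshold, a false discovery rate under 0.05, and lists 3.81% of the 19734 genes they tested. The members were therefore selected on the same comparison that is described below, and their direction is a description of these libraries. Levels are given as CPM, read counts scaled to the size of the library. Effective library sizes, the totals used for that scaling, ran from 23675459 to 44728937 reads. Batf itself was read at 63.4, 70.3 and 65.8 CPM in Batf KO replicates 1 to 3, against 315, 306.7, 333 and 322 CPM in wild-type replicates 1 to 4. It therefore fell to 20.8% of the wild-type level and was not absent. The wild-type libraries were more alike in pairs. Their chi-square per degree of freedom was 18.0 between replicates 1 and 2, 20.2 between replicates 3 and 4, and 32.5 to 48.5 across the pairs. Between Batf KO libraries it was 16.2 to 23.0. All 72 reads of the Y chromosome gene Usp9y were in Batf KO replicate 1, and calls that changed without that library are given beside the gene.

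Gimap3 and Gimap5 are the most similar members and fell by unequal amounts, and Gimap7 had the largest estimated fall, so the promoters of these 3 genes are shown. Each run holds the 250 bases before the RefSeq transcript start on GRCm38.p6, 5′ to 3′ on the gene's strand. They were taken from chr6:48770852-48771101 (minus strand) for Gimap3, chr6:48745947-48746196 (plus strand) for Gimap5 and chr6:48718371-48718620 (plus strand) for Gimap7. Capitals mark GAAATGANT, an IRF-like stretch joined to the start of an AP-1 element, which was found only in Gimap5 among the member promoters.
Gimap3: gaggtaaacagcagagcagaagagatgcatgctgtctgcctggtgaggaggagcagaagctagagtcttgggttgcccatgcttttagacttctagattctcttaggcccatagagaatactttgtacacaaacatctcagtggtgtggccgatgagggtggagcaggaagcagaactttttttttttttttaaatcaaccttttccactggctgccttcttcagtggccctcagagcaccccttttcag
Gimap5: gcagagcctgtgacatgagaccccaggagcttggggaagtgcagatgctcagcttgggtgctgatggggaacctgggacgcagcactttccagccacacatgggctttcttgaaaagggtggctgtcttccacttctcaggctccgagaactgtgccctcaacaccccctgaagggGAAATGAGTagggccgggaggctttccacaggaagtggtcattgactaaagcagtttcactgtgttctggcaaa
Gimap7: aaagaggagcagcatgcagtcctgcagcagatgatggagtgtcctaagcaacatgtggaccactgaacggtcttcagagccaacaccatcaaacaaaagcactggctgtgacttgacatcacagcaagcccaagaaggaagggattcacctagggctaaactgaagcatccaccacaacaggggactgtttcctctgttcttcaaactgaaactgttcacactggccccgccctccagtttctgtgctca

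Promoter windows of 300 bases, 250 before and 50 after the start, were searched on both strands, and the table of promoters held 7 windows for the 6 members. The AP-1 element TGANTCA, the site bound by BATF with JUN proteins, was in none of the 7 member windows and in 7.81% of all 32851 promoters. GAAATGANT, which can overlap TGANTCA, was in the window of 1 member, Gimap5, 74 bases before its start, as GAAATGAGT, and in 1.34% of all promoters. The IRF element GAAANNGAA and the ETS element CCGGAAG were in no member window and in 8.56% and 8.86% of all promoters. The KLF element CACCC was found in 3 of 6 members, Gimap8, Gimap5 and Gimap3, and in 57.5% of all promoters. A match is only a match of letters, and its absence says nothing about binding elsewhere.

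All 6 Gimap transcripts were lower in Batf KO, and in each of them every Batf KO library lay below every wild-type library. The 3 most abundant, Gimap8, Gimap6 and Gimap3, made up 85.8% of the summed Gimap reads in wild type and 85.0% in Batf KO. The summed level of the 6 transcripts was 1485, 1393, 1397 and 1526 CPM in wild type and 973, 1003 and 1032 CPM in Batf KO, so Batf KO held 69.1% of the wild-type level. In edgeR's quasi-likelihood test, with Benjamini-Hochberg adjustment over the 19734 genes the authors tested, 6 of 6 passed as lower and 0 as higher. The count was 2 without Batf KO replicate 2, 3 without Batf KO replicate 1 or 3 or wild-type replicate 1 or 4, 4 without wild-type replicate 3 and 5 without wild-type replicate 2. The share of all fitted genes that passed without a library is not given here, so these smaller counts have no background share. Of the 667 listed genes fitted, 22.8% passed as lower and 20.1% as higher by this rule with all 7 libraries. Of the same genes 48.6% were lower with groups that did not overlap. With adjustment over the fitted genes alone, 6 of 6 members also passed as lower, beside 49.2% of fitted genes lower and 50.8% higher. The authors' deposited table lists 1.86% of the genes they tested as lower and 1.95% as higher. The members lie in 1 cluster and were chosen with these results known, so the count is not a test of the family. In bulk RNA, fewer cells that express a gene and less RNA per cell cannot be told apart.

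**Figure D1:**
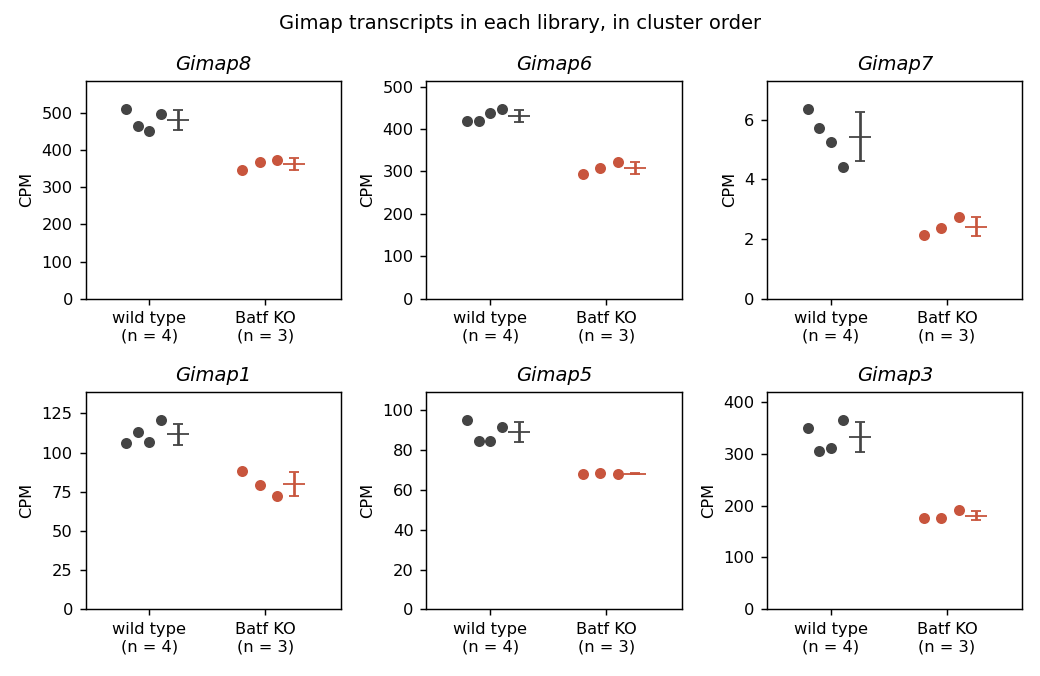
CPM of each Gimap transcript in each library (points; wild type n = 4, Batf KO n = 3), with the group mean and SD beside them; panels follow the order on chromosome 6 and each axis starts at 0. In each panel the Batf KO libraries lie below the wild-type libraries, with the widest separation relative to level in Gimap7 and Gimap3.

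Gimap3, the relative of Gimap5, had the lowest adjusted p of the family. It was 349.9, 305, 311 and 364 CPM in wild-type replicates 1 to 4 and 175, 176 and 191 CPM in Batf KO replicates 1 to 3. The groups were 114 CPM apart at their nearest libraries. The log2 fold change was -0.88 (SE 0.08), a 1.84-fold fall (edgeR adjusted p = 0.00123). It passed under each of 15 alternatives, with a log2 fold change of -0.92 to -0.83. These include adjustment over the fitted genes alone, which every fitted gene passed.

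Gimap5, the survival factor, had the smallest estimated fall, which differed from that of Gimap8 (-0.41 on the log2 scale) by less than the SE. It was 95.0, 84.7, 84.7 and 91.6 CPM in wild type and 68.0, 68.3 and 67.8 CPM in Batf KO, where the SD was only 0.268 CPM. The 3 Batf KO libraries were almost level, and the wild-type libraries 1 and 4 stood above 2 and 3. The log2 fold change was -0.39 (SE 0.07), a 1.31-fold fall (edgeR adjusted p = 0.0299). The call was kept when wild-type replicate 2 was left out (adjusted p = 0.0483) and lost when any other single library was left out, with edgeR adjusted p of 0.053 without wild-type replicate 3, 0.0732 without wild-type replicate 4, 0.0918 without wild-type replicate 1, and 0.125, 0.137 and 0.14 without Batf KO replicate 3, 1 and 2.

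Gimap8, which has several GTP-binding domains, was the most abundant member. It was 509.7, 466, 450.7 and 498 CPM in wild type and 346, 369 and 375 CPM in Batf KO. The groups were 75.9 CPM apart at their nearest libraries. The log2 fold change was -0.41 (SE 0.07), a 1.33-fold fall (edgeR adjusted p = 0.0193). The call was kept without wild-type replicate 2 or 3 and lost without Batf KO replicate 1 (adjusted p = 0.108), 2 (0.101) or 3 (0.0663) and without wild-type replicate 1 (0.059) or 4 (0.0554).

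Gimap6, the autophagy-linked member, had the smallest relative spread in wild type. It was 418, 419, 439 and 446 CPM in wild type and 294, 309 and 323 CPM in Batf KO. The log2 fold change was -0.48 (SE 0.06), a 1.40-fold fall (edgeR adjusted p = 0.0051). Like Gimap3, it passed under each of the same 15 alternatives, with a log2 fold change of -0.52 to -0.44.

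Gimap1, required for mature lymphocytes, fell by the same log2 value. It was 106, 113, 107.0 and 121 CPM in wild type and 88.1, 79.2 and 72.6 CPM in Batf KO, and the nearest libraries of the groups were 18.2 CPM apart. The log2 fold change was -0.48 (SE 0.09, edgeR adjusted p = 0.0299). The call was kept without Batf KO replicate 1 (adjusted p = 0.0448) and lost without Batf KO replicate 2 (0.156) or 3 (0.117) and without wild-type replicate 1 (0.0616), 2 (0.0641), 3 (0.0639) or 4 (0.0729).

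Gimap7, a GTPase that hydrolyses GTP as a dimer, was by far the least abundant member and had the largest estimated fall. It was 6.35, 5.71, 5.25 and 4.42 CPM in wild type and 2.14, 2.37 and 2.75 CPM in Batf KO, from 770 and 195 reads in all. Every Batf KO library had 64 to 66 reads, so the depth behind this gene was far lower than behind the others. The log2 fold change was -1.17 (SE 0.18), a 2.26-fold fall (edgeR adjusted p = 0.0148). The call was lost without Batf KO replicate 1 (adjusted p = 0.0921) or 2 (0.0947).

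The antisense transcript Gimap1os, which is not a numbered member, was also listed. It was 14.3, 13.5, 13.3 and 16.2 CPM in wild type and 8.36, 10.5 and 7.98 CPM in Batf KO, with groups that did not overlap, and its log2 fold change of -0.68 (SE 0.14) missed the threshold (edgeR adjusted p = 0.0539). It lies on the strand opposite Gimap1, and 1107 exon bases are common to both, 36.0% of the exon bases of Gimap1. Whether the counting used strand is not known here, so reads of Gimap1 and Gimap1os cannot be told apart in that stretch. The annotated gene Gm28053 overlaps Gimap7, Gimap1 and Gimap5 on the same strand and shares 81, 198 and 153 exon bases with them.

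Levels of different genes were compared as CPM per kb of annotated exon. The length used was the union of all annotated exons of a gene, and which isoform was expressed was not determined. It was 4149 bases for Gimap5 and 2577 for Gimap3. Their transcripts with the longest coding sequence hold 1953 and 2145 bases. The SDs below hold only the spread between libraries, so the order of genes depends on this choice of length. In wild type Gimap8 (130.1 ± 7.43, SD, n = 4), Gimap3 (129 ± 11.4) and Gimap6 (123 ± 4.01) did not differ beyond their spread. Gimap1 followed at 36.3 ± 2.18, Gimap5 at 21.4 ± 1.24 and Gimap7 at 2.34 ± 0.349 CPM per kb, each apart from its neighbours in this order by more than their SDs. In Batf KO the order was Gimap8 (98.1 ± 4.10, SD, n = 3), Gimap6 (88.3 ± 4.2), Gimap3 (70.1 ± 3.42), Gimap1 (26.02 ± 2.52), Gimap5 (16.4 ± 0.0646) and Gimap7 (1.04 ± 0.131). On this scale Gimap3 thus stood level with the leading pair in wild type and below both in Batf KO.

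**Figure D2:**
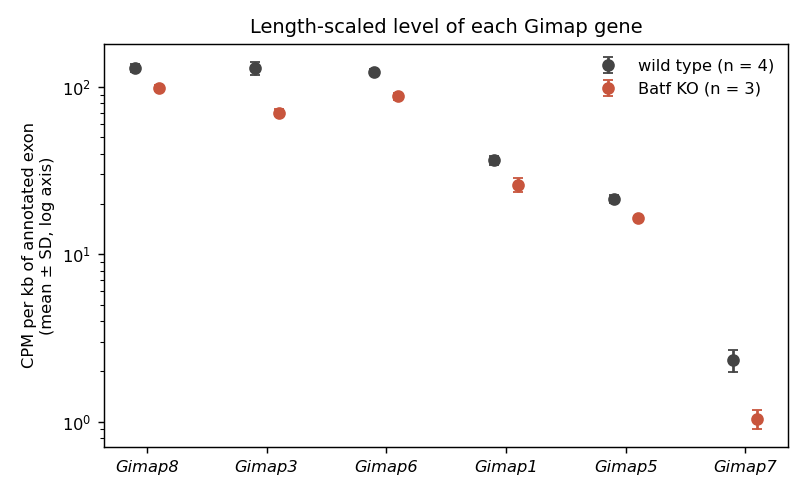
CPM per kb of annotated exon on a log axis for each Gimap gene (points are group means, bars SD; wild type n = 4, Batf KO n = 3), ordered by the wild-type level. Gimap8, Gimap3 and Gimap6 lie at 123 to 130.1 CPM per kb in wild type, and Gimap3 drops to 70.1 in Batf KO, below the other 2 of these genes.

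The size of the fall did not follow the level. The largest falls were those of Gimap7, with the lowest level per kb, and Gimap3, in the highest group, while Gimap8 and Gimap5, at 130.1 and 21.4 CPM per kb in wild type, fell by 0.41 and 0.39 on the log2 scale. The median log2 fold change of the 6 members was -0.48. It was -0.64 over the 328 fitted genes that were lower, so 4 of the 6 members changed less than the median lower gene of the table, and it was 0.30 over all 667 fitted genes. By size of fall Gimap7 ranked 47 and Gimap3 ranked 103 of those 328 genes, and the other members ranked 237 to 288.

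**Figure D3:**
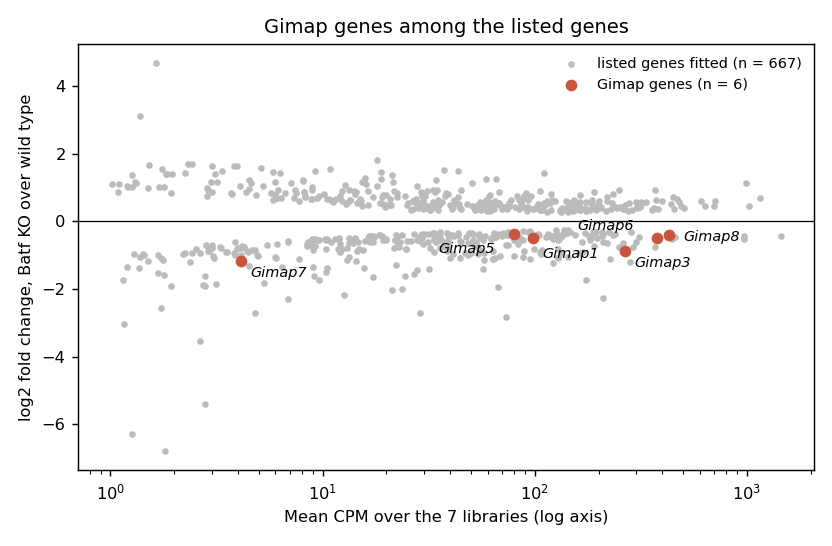
Log2 fold change (Batf KO over wild type) against mean CPM on a log axis for the 667 listed genes fitted (grey) and the 6 Gimap genes (red). The gap around 0 is there because the table holds only genes past the authors' threshold, and the Gimap genes other than Gimap7 and Gimap3 lie close to its lower edge.

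The Gimap genes occupy 124 kb of chromosome 6, from 48647234 to 48770851 (GRCm38, GENCODE M21). In the order of their coordinates they are Gimap8 (48647234 to 48660875, plus strand), Gimap9, Gimap4, Gimap6 (48701582 to 48708225, minus strand), Gimap7 (48718621 to 48724636, plus strand), Gimap1 (48739054 to 48743795, plus strand), Gimap5 (48746197 to 48754210, plus strand) and Gimap3 (48764464 to 48770851, minus strand). The log2 fold changes of the members in that order were -0.41, -0.48, -1.17, -0.48, -0.39 and -0.88, so the fall neither grew nor shrank steadily along the cluster. Gimap7, with the largest estimated fall, lies between Gimap6 and Gimap1, which both changed by -0.48. Gimap5 and Gimap3, with the smallest and the second largest estimated fall, are neighbours with 10.3 kb between them. The members on the minus strand, Gimap6 and Gimap3, changed by -0.48 and -0.88, a range that lies within that of the plus-strand members.

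**Figure D4:**
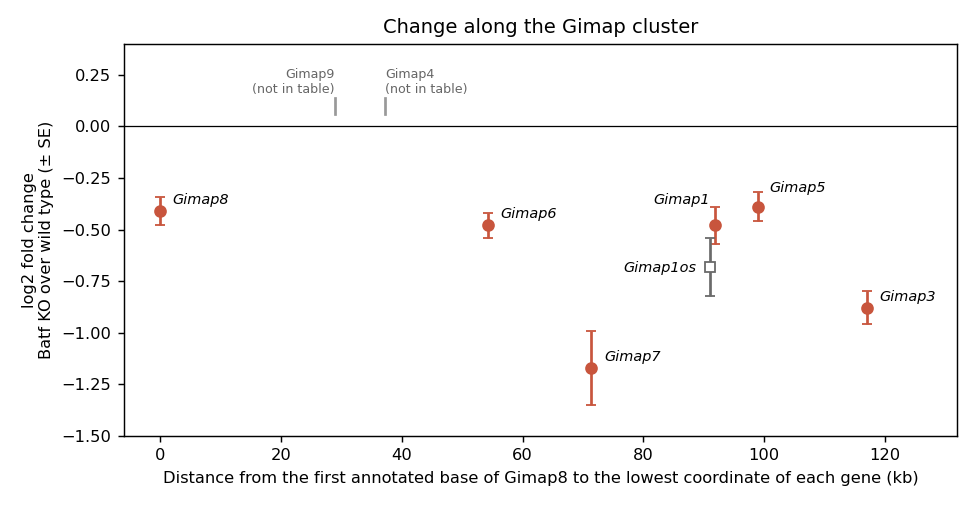
Log2 fold change (Batf KO over wild type, bars SE from edgeR) of the 6 Gimap genes (red) and the antisense transcript Gimap1os (open square) against distance in kb from the first annotated base of Gimap8; ticks mark Gimap9 and Gimap4, which have no value here. The values show no gradient, and Gimap7 (-1.17) and Gimap3 (-0.88) lie below their neighbours.

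No other listed gene lay within 1 Mb of the cluster, a window with 33 protein-coding genes, although genes outside the table have no value here. Only 3.81% of all tested genes were listed, so an empty window of this size does not show that the change was confined to the cluster. The nearest listed gene on either side was looked up after the window proved empty. They were Ezh2, a histone methyltransferase gene 1052 kb before the cluster that fell by 1.24 on the log2 scale (SE 0.12, edgeR adjusted p = 0.00158), and Tax1bp1, 3943 kb after it (log2 fold change -0.27, edgeR adjusted p = 0.13). Of the 29 genes on chromosome 6 that the authors' deposited table lists as lower, 7 were Gimap genes, counting Gimap1os. The family was chosen with this known, and the number of chromosome 6 genes tested is not given here, so this count is not a test.

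The members were compared with each other through the log2 ratio of their reads within each library, which does not depend on the library size. The Gimap3 to Gimap5 ratio was 1.85 to 1.99 in wild type and 1.36 to 1.49 in Batf KO, a difference of -0.49. The Gimap3 to Gimap6 ratio moved by -0.40 and the Gimap3 to Gimap8 ratio by -0.47, and in each of these pairs the groups did not overlap. By contrast the Gimap5 to Gimap8 ratio was -2.46 to -2.41 in wild type and -2.47 to -2.35 in Batf KO, so the wild-type values lay inside the range of the Batf KO values. The groups did not overlap in 7 of 15 pairs, each with Gimap3 or Gimap7 as a partner. The Gimap3 to Gimap7 ratio did overlap, with 5.74 to 6.37 in wild type and 6.12 to 6.36 in Batf KO. A larger fall of Gimap7 than of Gimap3 was thus not resolved. The pairs share members and are not independent, and no share over other gene pairs is given here. In an exact two-sided permutation test over the 7 libraries, 5 of 15 pairs had p = 0.0286, the smallest p this design allows, and none passed after Benjamini-Hochberg adjustment over the 15 pairs (lowest adjusted p = 0.0857). With p no lower than 0.0286, a single pair could not pass this adjustment however large its shift, and 5 pairs at that p gave 0.0857. The ratios of Gimap3 to Gimap5, Gimap6 and Gimap8 were lower in every Batf KO library than in any wild-type library. The adjusted test had too few libraries to decide on these differences.

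**Figure D5:**
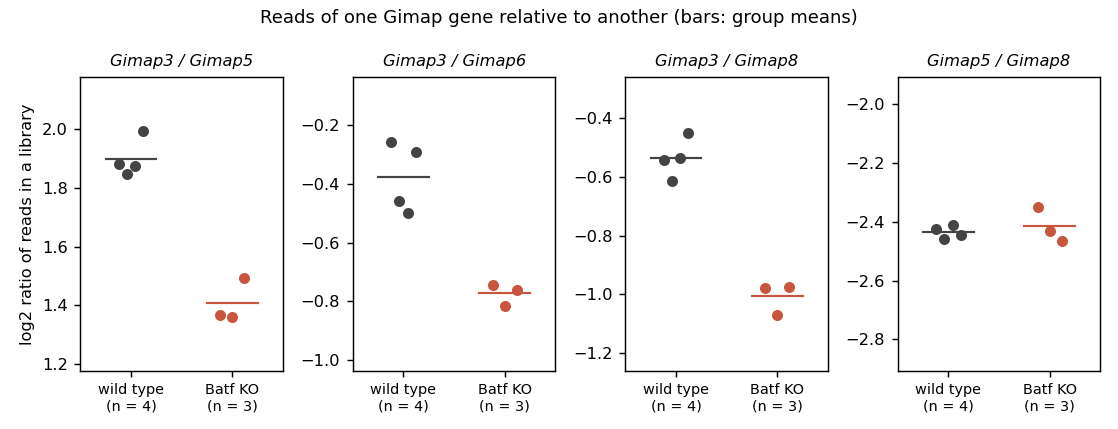
Log2 ratio of the reads of a Gimap gene to those of another within each library (points; bars are group means; wild type n = 4, Batf KO n = 3); the 4 panels have different ranges of equal height. Gimap3 is lower relative to Gimap5, Gimap6 and Gimap8 in each Batf KO library, whereas the Gimap5 to Gimap8 ratio overlaps between the groups.

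Gimap3 and Gimap5 are close copies, and their counts could have been affected by shared sequence. Their coding sequences were 88.9% identical over 899 aligned bases, and their transcripts shared a longest exact run of 140 bases. Of the 50-base windows of each gene's transcripts, 7.52% of those of Gimap3 and 4.53% of those of Gimap5 occurred in the other, all of them inside the coding sequence. No other pair of Gimap genes shared an exact run over 17 bases. How the counting treated reads that map to both copies is not known here, and reads of Gimap3 and Gimap5 in these stretches cannot be separated.

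Within a genotype the members did not all vary together. Over the 7 libraries, deviations of log2(CPM + 0.5) from the genotype mean had a Pearson r of 0.83 between Gimap8 and Gimap5, 0.83 between Gimap8 and Gimap3 and 0.80 between Gimap5 and Gimap3. These 3 genes were high in wild-type replicates 1 and 4 and low in replicates 2 and 3. Gimap7 and Gimap1 deviated in opposite directions (r = -0.82). Gimap7 was above and Gimap1 below its genotype mean in wild-type replicate 1 and Batf KO replicate 3, and the reverse held in wild-type replicate 4 and Batf KO replicate 1. Of the 15 pairs, 8 had a positive r. All points share the 7 libraries and their depth, so these values are descriptions. The other fitted genes whose deviations were most like the mean deviation of the 6 members were Flna (r = 0.978), Lrrk2 (0.944), Pik3cg (0.928), Zfp945 (0.921) and Shank1 (0.917), against a median r of 0.02 over 661 genes. They are the highest of 661 values, each over only 7 libraries, so r values this high could arise by selection alone.

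Counts of listed genes in other gene groups stand beside 3.81% of all tested genes listed, and counts that passed beside 22.8% of fitted genes lower and 20.1% higher; no group was tested against these shares. Of 18 genes of resting lymphocytes, 2 were in the table: Foxo1, a transcription factor of naive lymphocytes, fell 1.53-fold (edgeR adjusted p = 0.00476), and Ccr7, which guides lymphocytes to T cell zones, rose 1.61-fold (edgeR adjusted p = 0.000789). Of 18 genes of the BCL-2 family, which controls apoptosis, 2 were listed. Bcl2l1, which encodes the survival protein BCL-XL, rose 1.48-fold (edgeR adjusted p = 0.00462). Bcl2 had a log2 fold change of -0.62 and missed the threshold (edgeR adjusted p = 0.107). None of 22 interferon-inducible GTPase genes, 13 septin genes, whose products are related GTPases, and 12 genes of an ATG8 autophagy list was in the table. That last list is narrow and does not cover autophagy genes in general.

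Markers of cells that a B cell preparation could hold were set beside these results, again with 3.81% of all tested genes listed. Of 21 T cell markers only Cd8b1 was in the table, at 7.42, 6.72 and 5.24 CPM in Batf KO and 1.48 to 2.59 CPM in wild type. It rose 3.14-fold (edgeR adjusted p = 0.013). Of 10 NK markers only Tbx21 was listed (0.186 to 0.465 CPM in Batf KO, 1.25 to 10.1 CPM in wild type, edgeR adjusted p = 0.088), of 15 myeloid markers only Zbtb46 (73.6 to 89.6 against 47.4 to 65.6 CPM, edgeR adjusted p = 0.0744), and none of 10 endothelial markers. Markers outside the table have no value here, so a share of other cells, and its part in the lower Gimap level, was not tested. Of 12 B cell markers 2 were listed, and both rose: Ms4a1, which encodes CD20, 1.52-fold (edgeR adjusted p = 0.00392) and the kinase gene Blk 1.44-fold (edgeR adjusted p = 0.0124). Of 17 genes on a list for the handling response 8 were listed. The cells were also stimulated, and whether handling moved these genes was not tested. In the edgeR test Jun (1.81-fold) and Ier2 (1.43-fold) rose and Egr2 fell 3.08-fold, beside 20.1% of fitted genes higher and 22.8% lower. Jund, Ier3, Dusp1, Zfp36 and Atf3 had log2 fold changes of 0.33 to 1.03 and missed the threshold. The part of these genes' response in the Gimap values was not tested.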

How the data were processed

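RNA of 7 spleen B cell samples, extracted with a total RNA kit, was sequenced as paired-end libraries, per the labels' protocols. TopHat2 2.0.6, HTSeq 0.5.3p7, edgeR 3.03 and mm10 are named, without roles, in the submitters' processing notes. Read counts and CPM per gene and library stand in the deposited table, per the file headers. The authors' own comparison was deposited beside them: log2 fold change and log2 mean level, the likelihood ratio as a score, the p-value and its false discovery rate. Effective library sizes were recovered as count divided by CPM. The number of genes the authors tested was recovered from the ratio of false discovery rate to p-value.

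A filter on mean CPM, at least 1, left 667 of 752 genes, all 6 members among them. These were fitted in R 4.3.3 with edgeR 4.0.16 (quasi-likelihood test). P-values were adjusted over the 19734 genes the authors tested, genes outside the table counting as p = 1, with a threshold of 0.05. SE is the log2 fold change divided by the square root of F. These p-values rest on the spread between these samples. The fit also borrowed spread from the other fitted genes, all selected on this same comparison, so SE and p may be too small. The design text also says that samples have 2 replicates, without saying which. The edgeR step was run on simulated data in which most genes did not change and all had the same set spread. The genes fitted here were selected, so that run does not test the effect of the selection. Ratios between members were tested with scipy 1.17.1, a test chosen after the values were seen. Alternatives were TMM factors, DESeq2 1.42.0, limma 3.58.1 on log2(CPM + 0.5), other CPM filters, adjustment over the fitted genes alone, leaving out each library, and each pair of wild-type libraries. Positions and exon lengths come from GENCODE M21 (GRCm38, also called mm10), and promoters from RefSeq (GRCm38.p6), which held all 6 members. The members and gene lists were chosen with earlier results of these data known. The rule for named genes took the 6 members, list genes in the table, listed genes within 1 Mb, the 5 genes most like the members, and Batf; Ezh2, Tax1bp1, Usp9y, Gimap1os and Gm28053 were named after their values were seen.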

Additional observations from a re-analysis of the deposited data

How the results depend on the processing

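None of the 6 Gimap genes reversed under the alternatives that gave it a value, 89 values in all, of which 63 passed the threshold. The members had been selected on the same counts, so a reversal was unlikely beforehand. The count of 6 lower members ranged from 2 to 5 when a library was left out in turn, and was 3 against wild-type replicates 1 and 2 only and 2 against wild-type replicates 3 and 4 only. Gimap3 and Gimap6 passed in each of these. These alternatives hold fewer samples by construction, and the share of all fitted genes that passed in them is not given here. The count stayed at 6 with TMM factors, DESeq2, limma, no filter and adjustment over the fitted genes alone. With adjustment over the fitted genes alone every fitted gene passed, 49.2% as lower and 50.8% as higher, so that setting could not fail. Its passes are among the 63. Shares of all fitted genes under TMM factors, DESeq2 and limma are not given here, and all these genes had passed the authors' threshold. With a mean CPM of at least 5 it was 5, since Gimap7 was not fitted there. The count of higher members was 0 throughout. No paired analysis was possible because the replicate numbers were assigned here in the order of deposit, and no mouse number in the titles is common to both groups. Depth limits Gimap7, with 64 to 66 reads in each Batf KO library.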
